A study of Mus musculus with 4 samples.

Results

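Cell division genes were followed here across the cells of mouse tumours. The set holds 42 genes of the 32285 in the count tables: 20 genes of S phase, when DNA is copied, and 22 genes of G2 and M phase, when the cell prepares to divide and does so. They were chosen from a list of phase genes by name, not by their values, though with earlier results of these data known. All 42 were found in both RNA libraries. The S genes are Mcm2, Mcm3, Mcm4, Mcm5, Mcm6, Mcm7, Pcna, Tyms, Rrm1, Rrm2, Gins2, Cdc6, Cdc45, Ung, Uhrf1, Chaf1b, Slbp, Pola1, Fen1 and Dut. The G2M genes are Mki67, Top2a, Birc5, Ube2c, Cdk1, Ccna2, Ccnb1, Ccnb2, Cenpe, Cenpf, Cenpa, Aurka, Aurkb, Bub1, Bub1b, Plk1, Kif11, Kif23, Tpx2, Nusap1, Hmmr and Cdc20.

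The hosts were B6 mice of the Thy1.2 strain, wild type by label, that carried chimeric tumours. One group received Thy1.1 Pmel-1 Tc1 cells and the other Thy1.1 Pmel-1 Tc9 cells, both with an adjuvant. Pmel-1 cells are CD8 T cells with a transgenic receptor for the melanocyte protein gp100, and Tc1 and Tc9 name CD8 T cells grown into an interferon-gamma or an interleukin-9 producing state. Tumours of 3 mice per group were pooled on day 30 after inoculation, CD4 T cells were sorted from them, and 1 single-cell RNA library and 1 T-cell receptor library were made per group. The mice within a pool cannot be told apart, so each group is 1 library and no difference between the groups has a replicate check or a test.

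A cell enters S phase when cyclin-dependent kinases release E2F factors from the retinoblastoma protein, and E2F factors then switch on the genes that copy DNA. The G2M genes are switched on later, by the MuvB complex with B-MYB and FOXM1, and their proteins build the spindle, attach chromosomes to it and start anaphase. T cells rest until their receptor is engaged and then divide rapidly, so transcripts of these genes mark the cells in a T-cell sample that are in cycle at the time of sampling. Regulatory T cells, which carry the transcription factor Foxp3, are known to divide readily in tumours.

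The promoters of 5 members are shown because the genes are used below as examples. Matches to the sequence elements named below are marked where the window holds any. Windows run from 250 bases before to 50 bases after the transcription start (RefSeq, GRCm38.p6) and were available for 37 of the 42 members, 18 S and 19 G2M. Each line is 5′ to 3′ on the gene's own strand. Capitals mark matches, on either strand, to an E2F element (TTTCCCGC, TTTCGCGC, TTTGCCGC or TTTGGCGC), to the CCAAT box (CCAAT) or to the cell cycle homology region (TTTGAA). Mcm5 (ENSMUSG00000005410, plus strand) encodes a subunit of the replicative helicase and Pcna (ENSMUSG00000027342, minus strand) the sliding clamp of DNA polymerase. Mki67 (ENSMUSG00000031004), Top2a (ENSMUSG00000020914) and Kif23 (ENSMUSG00000032254), all on the minus strand, encode the Ki-67 protein that coats mitotic chromosomes, the topoisomerase that untangles sister chromatids and a kinesin of the midbody.
Mcm5 chr8:75109259-75109558: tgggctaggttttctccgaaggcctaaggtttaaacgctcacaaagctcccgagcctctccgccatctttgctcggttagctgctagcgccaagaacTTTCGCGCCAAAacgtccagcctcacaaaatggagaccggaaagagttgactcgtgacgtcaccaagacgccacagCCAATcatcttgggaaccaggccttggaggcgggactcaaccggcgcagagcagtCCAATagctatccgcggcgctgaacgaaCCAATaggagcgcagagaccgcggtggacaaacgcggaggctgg
Pcna chr2:132253131-132253430: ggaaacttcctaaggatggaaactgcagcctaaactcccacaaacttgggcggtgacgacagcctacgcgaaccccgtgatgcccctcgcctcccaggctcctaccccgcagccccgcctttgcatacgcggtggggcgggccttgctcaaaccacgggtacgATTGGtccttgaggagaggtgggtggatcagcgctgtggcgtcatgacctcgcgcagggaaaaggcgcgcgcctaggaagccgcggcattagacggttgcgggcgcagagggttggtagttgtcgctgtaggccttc
Mki67 chr7:135716330-135716629: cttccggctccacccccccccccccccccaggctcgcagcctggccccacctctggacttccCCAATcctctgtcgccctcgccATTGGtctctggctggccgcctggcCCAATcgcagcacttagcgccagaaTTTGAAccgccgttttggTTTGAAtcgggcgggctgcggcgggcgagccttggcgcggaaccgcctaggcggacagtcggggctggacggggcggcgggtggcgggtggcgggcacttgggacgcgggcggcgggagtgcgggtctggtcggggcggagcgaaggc
Top2a chr11:99024140-99024439: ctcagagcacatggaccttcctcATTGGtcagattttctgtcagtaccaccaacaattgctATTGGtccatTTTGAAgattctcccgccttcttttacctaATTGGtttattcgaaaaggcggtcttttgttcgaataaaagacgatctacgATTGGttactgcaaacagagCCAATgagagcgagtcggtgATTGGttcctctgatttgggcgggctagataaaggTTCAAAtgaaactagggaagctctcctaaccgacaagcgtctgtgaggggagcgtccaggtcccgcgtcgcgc
Kif23 chr9:61946750-61947049: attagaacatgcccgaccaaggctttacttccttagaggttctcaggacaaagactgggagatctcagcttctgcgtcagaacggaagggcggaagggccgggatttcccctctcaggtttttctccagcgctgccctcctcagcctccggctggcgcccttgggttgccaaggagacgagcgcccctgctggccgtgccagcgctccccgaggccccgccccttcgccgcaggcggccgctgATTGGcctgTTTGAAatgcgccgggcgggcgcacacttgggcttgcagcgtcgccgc

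The Mcm5 window holds 2 overlapping E2F matches and 3 CCAAT boxes, and the Pcna window 1 CCAAT box and none of the E2F letters searched. The Mki67 window holds 3 CCAAT boxes and 2 homology regions, that of Top2a 6 and 2, and that of Kif23 1 and 1. Among S genes, 7 of 18 (38.9%) had an E2F match, against 1 of 19 G2M genes (5.26%) and 2.26% of all 32851 windows. A homology region was present in 14 of 19 G2M genes (73.7%), against 3 of 18 S genes (16.7%) and 17.9% of all windows. A CCAAT box together with a homology region was found in the same 73.7% of G2M genes, in 11.1% of S genes and in 6.95% of all windows. A match describes letters and is not a measured binding site.

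The libraries held 13406 barcodes with Tc1 transfer and 8449 with Tc9 transfer, of which 11933 and 8204 passed the filters, at median depths of 5404 and 5256 UMIs (unique molecular identifiers, each 1 captured RNA). The label says sorted CD4 T cells, but 4775 of the kept Tc1 barcodes and 7773 of the kept Tc9 barcodes were of T lineage. The 2 libraries shared 127 kept barcodes. T-lineage barcodes were classed by their own UMIs: Foxp3 CD4 (a Foxp3 UMI and no Cd8 UMI; 209 in Tc1 and 1034 in Tc9), other CD4 (Cd4 but neither Foxp3 nor Cd8; 1114 and 3719) and CD8 (a Cd8 UMI and no Cd4; 1948 and 217). Shared-receptor cells (45 and 480) carried a receptor beta chain found in both libraries, chiefly TRBV14 with TRBJ1-6, whose junction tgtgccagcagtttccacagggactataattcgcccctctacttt was on 59 Tc1 and 487 Tc9 barcodes. Levels are in CPM, the UMIs of the gene or list per 1000000 UMIs of the class. Bracketed intervals are 95% and cover counting error only, and a gene is called higher or lower where its ratio reached 1.5-fold. Because the UMIs of these genes sit in few cells, those intervals are narrower than the cell-to-cell spread would give.

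Foxp3 CD4 cells held less S and far less G2M RNA in the Tc9 than in the Tc1 library. The summed S level was 1438 CPM in Tc1 against 606 CPM in Tc9, giving a log2 ratio of -1.25 [-1.32, -1.17]. The summed G2M level was 1426 CPM in Tc1 against 335 CPM in Tc9, giving a log2 ratio of -2.09 [-2.17, -2.00]. The G2M sum thus differed more between the libraries than the S sum did, and neither interval reached 0. With every barcode thinned to 2000 UMIs, 19 of 196 Foxp3 cells in Tc1 (9.69%, exact interval 5.94 to 14.7) and 25 of 995 in Tc9 (2.51%, 1.63 to 3.69) carried 3 or more G2M UMIs. Of the Foxp3 cells, 188 in Tc1 and 962 in Tc9 lay in the same Treg-like cluster. Barcodes with 3 or more G2M UMIs are called G2M-high, and the Tc9 minus Tc1 difference was -7.18 percentage points (Newcombe interval -12.3 to -3.25).

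G2M-high cells held more RNA: in Tc1 the median was 11204 UMIs in G2M-high Foxp3 cells and 4665 in the others, and in Tc9 10206 and 5540. Counting every barcode equally, the ratio was -1.61 for G2M and -0.65 for S. The S ratio without the deepest 5% of barcodes and those with over 1 beta chain, a guard against doublets, was -0.82. Summed macrophage transcripts (C1qa, C1qb, C1qc and Lyz2) in Foxp3 cells were 224 CPM in Tc1 against 8.62 CPM in Tc9. Without the barcodes that held one, which left 75 in Tc1 and 994 in Tc9, the ratio was -1.30 for S and -2.14 for G2M. The difference in the share with at least 1 G2M UMI at equal depth was then -10.3 percentage points (-23.0 to 1.45), against -15.6 with them. Melanoma transcripts were 82.2 and 4.38 CPM and red-cell and platelet transcripts 294 and 0.731 CPM, and their part in the result was not tested. In such sums over a class, fewer cycling cells and less RNA per cycling cell cannot be told apart, which is why the shares at equal depth are given beside them.

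**Figure D1:**
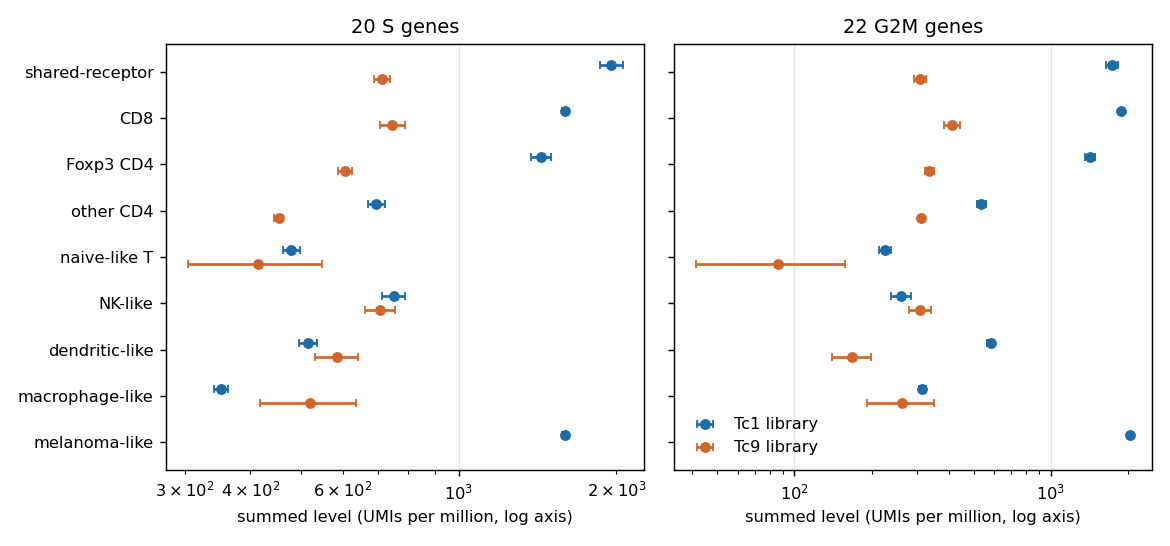
Summed S (left) and G2M (right) level in each cell class, in CPM on a log axis, with 1 point per library and bars for the 95% counting interval. The Tc1 points of Foxp3 CD4 (1426 CPM for G2M), CD8 (1886 CPM) and shared-receptor cells (1734 CPM) lie well to the right of the Tc9 points, and the points of NK-like cells (261 and 309 CPM) lie close together.

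Nearly every member took part in the difference in Foxp3 cells. Of 20 S genes, 18 were lower in Tc9 by at least 1.5-fold, and of 22 G2M genes 21 were, where 24.3% of all genes at 10 CPM or more in a library were lower by as much. The median log2 ratio was -1.66 over the S genes and -2.67 over the G2M genes, beside -0.09 over all genes. The S genes outside the lower set were Pcna, at -0.58, and Mcm6, another helicase subunit, at -0.56. The lone G2M gene outside it was Kif23, at 22.9 CPM in Tc1 against 26.3 CPM in Tc9.

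The lowest ratios in Foxp3 cells were those of G2M genes. Cdc20, the activator of the anaphase-promoting complex, was at 42.2 CPM in Tc1 (59 UMIs) against 2.05 CPM in Tc9 (14 UMIs), a log2 ratio of -4.37. Ccnb2, a B-type cyclin that drives mitosis, was at 63.6 and 4.82 CPM (-3.72), and Cenpf, a kinetochore protein, at 99.3 and 7.74 CPM (-3.68). Ube2c, the ubiquitin carrier of the same anaphase complex, was at 160 and 15.8 CPM (-3.34), and Birc5, which encodes survivin of the chromosomal passenger complex, at 113 and 12.3 CPM (-3.20). Aurkb, the kinase of that passenger complex, was at -3.26, and Ccnb1, the other B-type cyclin, at -3.23. Mki67 stood at 192 CPM in Tc1 against 57.4 CPM in Tc9 (-1.74), and Top2a at 155 and 57.4 CPM (-1.43). Among S genes, the origin loading factor Cdc6 had the lowest ratio (-2.51), Rrm2, the small subunit of ribonucleotide reductase, was at 66.5 and 11.8 CPM (-2.49), Mcm5 at 77.9 and 23.2 CPM (-1.75) and Pcna at 136 and 91.0 CPM.

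In other CD4 cells the same lists were lower in Tc9 by a smaller factor. The S sum was 696 CPM in Tc1 against 453 CPM in Tc9 (log2 ratio -0.62 [-0.68, -0.56]) and the G2M sum 535 and 313 CPM (-0.77 [-0.84, -0.71]). At equal depth, 28 of 1004 Tc1 barcodes (2.79%) and 64 of 3588 Tc9 barcodes (1.78%) were G2M-high, and the interval of the difference, -2.29 to 0.0434 percentage points around -1.01, included 0. The share with at least 1 G2M UMI differed by -9.06 percentage points.

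The class was made of different clusters in each library: 651 of the 1114 Tc1 barcodes lay in cluster 4, led by Krt83 and the haemoglobin gene Hbb-bs, and 1467 and 1421 of the 3719 Tc9 barcodes in clusters 0 and 1. Both sums also depended on how the class was bounded and scaled. With TMM scaling, which moved all log2 ratios of this class by 0.29, the S ratio was -0.33 and the G2M ratio -0.48, so both fell short of 1.5-fold, and without barcodes holding a C1q or Lyz2 UMI they were -0.50 and -0.37, from 484 Tc1 and 3598 Tc9 barcodes. Macrophage transcripts in the class were 374 CPM in Tc1 against 11.8 CPM in Tc9, melanoma transcripts 128 and 3.62 CPM and red-cell and platelet transcripts 3621 and 1.06 CPM, and the part of the last 2 in the result was not tested. A naive-like cluster, with G2M at 226 CPM, made up 215 of the Tc1 barcodes and 9 of the Tc9 barcodes of other CD4, and without it the G2M ratio was -1.04.

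Member by member, 8 of the 16 S genes that reached 10 CPM in other CD4 cells were lower in Tc9, and 10 of 15 G2M genes, where 18.5% of all genes were. The medians were -0.70 and -0.81, beside -0.16 over all genes, and no member was higher by 1.5-fold. Cdc6 (-1.74) and Gins2 (-1.47), a subunit of the replicative helicase, were also low but stayed under 10 CPM. Of the S genes at 10 CPM or more, the lowest ratios were those of Fen1, Rrm2, Mcm5 and Tyms. Fen1, the flap nuclease that trims Okazaki fragments, was at 23.8 CPM in Tc1 against 7.80 CPM in Tc9 (-1.61), and Rrm2 at 25.2 and 8.76 CPM (-1.52). Mcm5 was at 25.9 and 9.54 CPM (-1.44 [-1.78, -1.09]), and Tyms, which makes thymidylate, at 27.2 and 10.5 CPM (-1.37).

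The S genes at the other end had ratios short of 1.5-fold. Pola1, the catalytic subunit of polymerase alpha, was at 37.0 CPM in Tc1 against 38.1 CPM in Tc9 (0.04), and Pcna at 81.0 and 70.8 CPM (-0.19 [-0.36, -0.02]). Mcm2, a helicase subunit, was at 25.2 and 18.7 CPM (-0.43), and Slbp, which binds histone mRNA, at 87.8 and 64.7 CPM (-0.44).

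Among G2M genes at 10 CPM or more in other CD4 cells, the lowest ratios were those of Birc5 and of the cyclins with their kinase. Birc5 was at 43.8 CPM in Tc1 against 13.1 CPM in Tc9 (-1.74), and Ccnb2 at 19.6 and 5.92 CPM (-1.72). Ccna2, the cyclin of S and G2 phase, was at 19.6 and 7.48 CPM (-1.39), and Cdk1, the kinase of mitotic entry, at 17.5 and 6.70 CPM (-1.38). The highest ratios were those of Kif23 (18.9 and 22.2 CPM, 0.23), Kif11, the kinesin that separates spindle poles (21.4 and 20.6 CPM, -0.05), and Nusap1, a spindle-binding protein (17.0 and 13.2 CPM, -0.36). Mki67 was at 76.9 and 54.2 CPM (-0.50) and Top2a at 79.6 and 56.0 CPM (-0.51), both short of 1.5-fold.

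**Figure D2:**
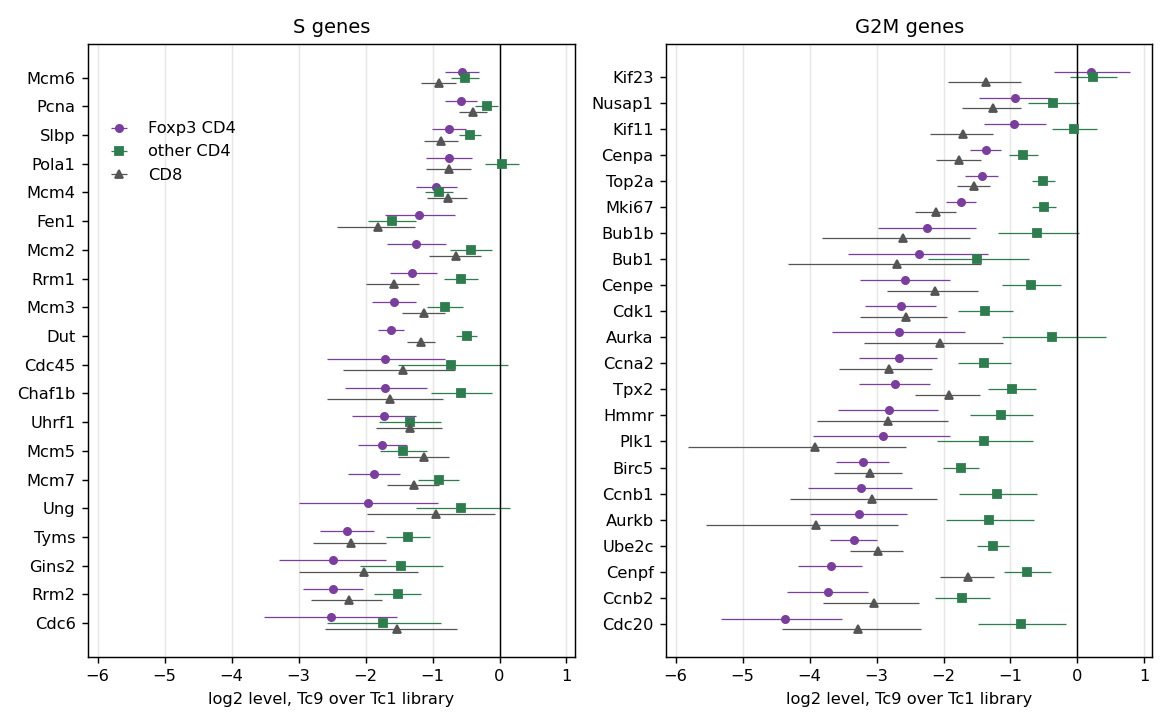
Log2 level of each member in the Tc9 over the Tc1 library, S genes on one panel and G2M genes on the other, with 1 symbol each for Foxp3 CD4, other CD4 and CD8 cells and bars for the 95% counting interval. Most symbols lie left of 0, those of Foxp3 CD4 and CD8 cells further than those of other CD4 cells; Kif23 lies at 0.20 and 0.23 in the CD4 classes and at -1.37 in CD8 cells.

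CD8 cells, which a CD4 sort should not hold, showed the same direction. Their S sum was 1593 CPM in Tc1 against 747 CPM in Tc9 (-1.09 [-1.17, -1.01]) and their G2M sum 1886 and 413 CPM (-2.19 [-2.30, -2.09]). At equal depth 283 of 1859 barcodes in Tc1 (15.2%) and 9 of 211 in Tc9 (4.27%) were G2M-high, a difference of -11.0 percentage points (-13.8 to -6.95). Of the S genes 19 of 20 were lower in Tc9 and of the G2M genes 22 of 22, where 23.9% of all genes were; the medians were -1.22 and -2.58, beside -0.08 over all genes.

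Plk1, a kinase of mitotic entry and spindle assembly, had the lowest CD8 ratio (33.1 CPM in Tc1 and 2.18 CPM, 4 UMIs, in Tc9; -3.92). Mki67 was at 227 and 52.4 CPM (-2.11), Top2a at 226 and 77.5 CPM (-1.54) and Rrm2 at 83.1 and 17.5 CPM (-2.25). Mcm5 was at 75.2 and 34.4 CPM (-1.13), and Pcna, the S gene outside the lower set, at 151 and 116 CPM (-0.39). Different clusters held the CD8 cells of each library: a cluster led by Gzma and Gzmk, genes of killer cell granzymes, held 1226 of the Tc1 barcodes and 7 of the Tc9 barcodes, with G2M at 2276 CPM in Tc1. Of the others, 445 Tc1 barcodes were naive-like and 77 of the 217 Tc9 barcodes lay in the cluster of the shared-receptor cells. A further 50 Tc9 barcodes lay in the Treg-like cluster, and 37, 23 and 17 in clusters 0, 1 and 10. In those clusters more barcodes held a Cd4 than a Cd8 UMI. Treg marker genes summed to 703 CPM in CD8 cells of Tc1 and 2916 CPM in Tc9. The CD8 classes of the libraries were thus not alike in make-up. Without the naive-like cluster and that of the shared-receptor cells the G2M ratio was -2.74, from 1484 Tc1 and 139 Tc9 barcodes. With CD8 cells taken as whole clusters it was -1.51. Macrophage transcripts in CD8 cells were 171 CPM in Tc1 and 45.3 CPM in Tc9, and without the barcodes that held one the G2M ratio was -2.07.

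Shared-receptor cells showed the widest ratio between the libraries, from only 45 Tc1 barcodes. Their S sum was 1955 CPM in Tc1 against 715 CPM in Tc9 (-1.45 [-1.54, -1.36]) and their G2M sum 1734 and 309 CPM (-2.49 [-2.60, -2.38]). Of 45 Tc1 barcodes 9 and of 478 Tc9 barcodes 15 (3.14%) were G2M-high at equal depth, a difference of -16.9 percentage points (-31.5 to -6.25). Mki67 was at 236 CPM in Tc1 against 37.5 CPM in Tc9, Top2a at 242 and 72.3 CPM, and Rrm2 at 131 and 9.32 CPM. All 45 Tc1 barcodes and 298 of the Tc9 barcodes held a Cd8 UMI, and the median depth was 16139 UMIs in Tc1 and 7708 in Tc9. With each barcode thinned to 2000 UMIs the G2M ratio was -2.89.

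In their sums over all barcodes, NK-like cells did not share the difference. Their S sum was 752 CPM in Tc1 against 708 CPM in Tc9 (-0.09 [-0.21, 0.03]) and their G2M sum 261 and 309 CPM (0.24 [0.05, 0.44]). Of 17 S genes that reached 10 CPM, 3 were lower in Tc9, and of 11 G2M genes 0, where 15.2% of all genes were. Mki67 was at 30.8 and 41.7 CPM and Pcna at 82.6 and 105 CPM. Macrophage transcripts were 396 CPM in Tc1 and 5.62 CPM in Tc9. Without the barcodes that held one, which left 129 in Tc1 and 124 in Tc9, the G2M ratio was -0.26 [-0.48, -0.04]. The share with at least 1 G2M UMI was 22.9% in Tc1 and 17.5% in Tc9, and the interval of that difference (-13.4 to 3.61) included 0. A Cd3 UMI was found in 80.7% of the barcodes of the NK-like cluster, so the name rests on its NK genes and not on the absence of T-cell genes.

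Macrophage-like and dendritic-like cells gave mixed values, from 69 and 83 Tc9 barcodes. The macrophage-like S sum was 352 CPM in Tc1 against 519 CPM in Tc9 (0.56 [0.25, 0.86]) and the G2M sum 315 and 262 CPM (-0.26 [-0.72, 0.15]). Dendritic-like cells had S sums of 515 and 585 CPM (0.18 [0.04, 0.33]) and G2M sums of 583 and 168 CPM (-1.79 [-2.06, -1.54]); without the deepest 5% of barcodes and those with over 1 beta chain the G2M ratio was -1.12. The G2M-high share was 7.02% of Tc1 dendritic-like barcodes (25 of 356) and 2.67% of Tc9 ones (2 of 75). The interval of that difference, -8.30 to 2.71 percentage points around -4.36, included 0. Over the processing alternatives the macrophage-like G2M ratio ranged from -0.92 to 0.59, so no direction is given for it. The macrophage-like S ratio ranged from 0.04 to 1.15. It was 0.04 [-0.70, 0.68] at 1000 genes or more per barcode and 0.13 [-0.18, 0.43] with TMM scaling, and both intervals included 0. The median depth of macrophage-like barcodes was 7866 UMIs in Tc1 and 1860 in Tc9.

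Melanoma-like cells were found almost wholly in the Tc1 library (379 barcodes, against 1 in Tc9) and carried a G2M level of 2031 CPM and an S level of 1596 CPM. Of 283 such barcodes at equal depth, 105 (37.1%, 31.5 to 43.0) were G2M-high. The G2M sum was 1.92 higher on the log2 scale than in other CD4 cells of the same library. In these tumour cells Ube2c was at 267 CPM, Top2a and Birc5 at 208 CPM each, Mki67 at 151 CPM, Pcna at 148 CPM and Dut, which keeps uracil out of DNA, at 266 CPM.

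Cells that are not expected to divide set the background of these shares. Of 81 neutrophil-like barcodes of the Tc1 library at 2000 UMIs, 1 was G2M-high (1.23%, 0.0313 to 6.69), so that interval is wide. At least 1 G2M UMI was found in 14.8% of them and at least 1 S UMI in 30.9%. Their cluster also passed the mast or basophil marker list. Naive-like T cells were G2M-high in 1.18% (0.612 to 2.06), and 52.0% of them had at least 1 S UMI. The shares with at least 1 G2M UMI were 44.4% in Tc1 and 28.7% in Tc9 for Foxp3 cells, and 29.0% and 19.9% for other CD4 cells. Without thinning they were 65.1% and 54.9%, and 40.9% in both libraries. The G2M-high share of Tc9 other CD4 cells, 1.78%, lay within the intervals of both background classes, and that of Tc1 Foxp3 cells, 9.69%, lay above them. Those of Tc9 Foxp3 cells, 2.51%, and Tc1 other CD4 cells, 2.79%, lay above the naive-like interval but within the neutrophil-like one. Both background classes come from the Tc1 library.

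**Figure D3:**
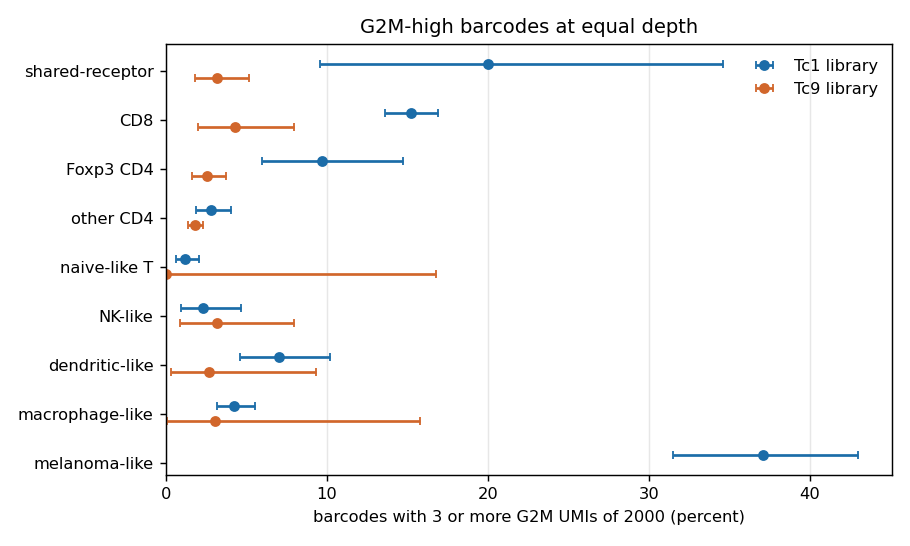
Share of barcodes with 3 or more G2M UMIs after thinning to 2000 UMIs, in percent, by cell class, with 1 point per library and bars for the exact 95% interval. Melanoma-like cells (37.1%) lie furthest right, the Tc1 points of Foxp3 CD4, CD8 and shared-receptor cells (9.69% and 15.2% for the first 2) lie right of their Tc9 points (2.51%, 4.27% and, for shared-receptor cells, 3.14%), and the 2 points of other CD4 cells (2.79% and 1.78%) lie close together.

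Within the Tc1 library, the sums of both lists were higher in Foxp3 than in other CD4 cells, and within the Tc9 library the G2M sums were nearly equal. The log2 ratio of Foxp3 over other CD4 was 1.05 for S and 1.41 for G2M in Tc1, and 0.42 for S and 0.10 [0.03, 0.17] for G2M in Tc9. In Tc1, 18 of 20 S and 21 of 22 G2M genes were higher in Foxp3 cells, where 18.1% of all genes were (medians 1.25 and 1.38, beside 0.08). In Tc9, 4 of 15 S and 1 of 10 G2M genes were higher, where 12.5% of all genes were (medians 0.43 and 0.02, beside 0.13). Mki67 was 1.32 [1.08, 1.56] higher on the log2 scale in Foxp3 cells of Tc1 and 0.08 [-0.09, 0.25] in Tc9. The G2M gene that was higher in Tc9 was Cenpa, the centromeric histone variant, at 64.0 CPM in Foxp3 and 32.0 CPM in other CD4 cells. The Tc1 G2M ratio was 0.72 without the naive-like cluster and cluster 4. The Tc9 G2M ratio was 0.82 without the deepest 5% of barcodes together with those of over 1 beta chain. It was 0.47 after thinning and -0.08 with TMM scaling. At 2000 UMIs, 28.7% of Foxp3 and 19.9% of other CD4 barcodes of Tc9 had a G2M UMI. That difference was 8.82 percentage points (5.71 to 12.0), and for G2M-high barcodes it was 0.729 (-0.278 to 1.97). In Tc1, 58.7% of Foxp3 and 61.1% of other CD4 barcodes had an S UMI at that depth. The difference was -2.38 percentage points (-10.2 to 5.24), an interval that included 0. For 3 or more S UMIs the Tc1 shares were 18.9% and 9.76%, a difference of 9.12 (3.52 to 15.6).

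Across T-cell clusters, which were drawn without cell cycle genes, the G2M sum was lower in Tc9 in each of those described here. In the Treg-like cluster it was 1483 CPM in Tc1 against 351 CPM in Tc9. In cluster 10, led by the type 2 cytokine genes Il13 and Il5, it was 402 and 200 CPM, and in clusters 0, 1 and 4 it was 599 and 268, 331 and 219, and 473 and 106 CPM. Some of these sums rest on few cells. Clusters 0, 1 and 10 held 137, 55 and 51 Tc1 barcodes, and cluster 4 held 149 Tc9 barcodes. At equal depth, 4 of 115, 2 of 48 and 1 of 48 Tc1 barcodes of clusters 0, 1 and 10 were G2M-high. The 5% of these Tc1 barcodes with the most G2M UMIs held 79.0%, 70.5% and 65.6% of them. Cluster 11 had the highest Tc9 value, 1703 CPM in Tc1 against 755 CPM in Tc9, with 15.9% and 7.19% of barcodes G2M-high.

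In single cells the members came together, though not to the same degree. Over all T-lineage barcodes, each gene was compared between barcodes high in the rest of its list and the other barcodes of the library. Hmmr, a spindle protein, was detected in 21.7% of high and 0.206% of other barcodes in Tc1, and in 12.1% and 0.0416% in Tc9. Birc5 was detected in 48.0% and 1.38% in Tc1 and in 29.2% and 0.180% in Tc9, and Mki67 in 64.5% and 5.25%, and 49.5% and 3.20%. Hmmr and Birc5 were thus rare outside the high barcodes in both libraries.

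Kif23 and Cenpa were spread more widely. Kif23 was detected in 20.7% of high and 2.54% of other barcodes in Tc1, but in 10.7% and 3.52% in Tc9, where 5.46% of its UMIs lay in high barcodes against 49.0% in Tc1. Cenpa was detected in 43.3% and 8.08% in Tc1 and in 26.1% and 5.70% in Tc9, where 9.72% of its UMIs lay in high barcodes. Cenpf, by contrast, had 91.3% of its UMIs in high barcodes in Tc1 and 82.3% in Tc9. Among S genes, Pcna was detected in 35.4% and 11.5% in Tc1, and Slbp in 29.3% and 12.8% in Tc1 and in 17.5% and 11.6% in Tc9. Barcodes high in a list are also deeper, so these pairs of shares describe the genes and are not a test.

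**Figure D4:**
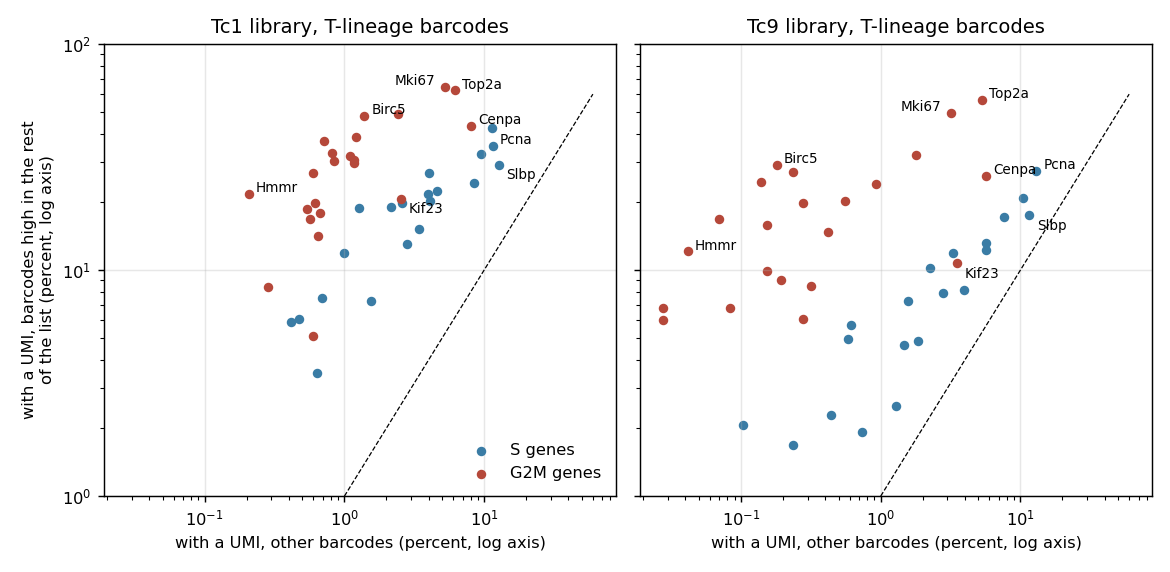
Percent of T-lineage barcodes with a UMI of each member, in barcodes high in the rest of its list (vertical) against the other barcodes (horizontal), both on log axes, 1 panel per library and 1 point per gene. Hmmr (21.7% against 0.206% in Tc1) lies far above equality, and Kif23 in Tc9 (10.7% against 3.52%) and Slbp (17.5% against 11.6% in Tc9) lie near it.

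Few barcodes carried most of the G2M RNA. The 5% of barcodes with the most G2M UMIs held 68.7% of them in Foxp3 cells of Tc1 and 61.9% in Tc9, 76.5% and 73.6% in other CD4 cells and 59.3% and 70.4% in CD8 cells.

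Receptor sequences gave the size of each cell's clonotype, the group of cells that share 1 alpha and 1 beta chain. Clonotypes of 3 or more barcodes were called expanded and those of 1 barcode single. In CD4 cells of both CD4 classes together, the G2M sum was 961 CPM in expanded and 1141 CPM in single clonotypes of Tc1 (log2 ratio -0.25), and 475 and 303 CPM in Tc9 (0.65). In Tc1, 0 of 18 S genes and 2 of 22 G2M genes were higher in expanded clonotypes, where 12.7% of all genes were, and 9 S and 2 G2M genes were lower, where 13.2% of all genes were. In Tc9, 2 of 15 S genes and 11 of 14 G2M genes were higher, where 4.53% of all genes were (medians -0.06 and 0.97, beside -0.09). Mki67 was at 83.9 CPM in expanded and 154 CPM in single clonotypes of Tc1 (-0.88 [-1.30, -0.47]), and at 73.0 and 41.7 CPM in Tc9 (0.81 [0.49, 1.13]).

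For the share of G2M-high CD4 barcodes, the interval of the difference between expanded and single clonotypes included 0 in both libraries. The share was 6 of 174 expanded (3.45%) and 17 of 271 single barcodes (6.27%) in Tc1, and 20 of 694 (2.88%) and 9 of 394 (2.28%) in Tc9, and the differences were -2.82 (-7.01 to 1.85) and 0.598 (-1.70 to 2.57) percentage points. The Tc9 ratio changed sign, to -0.45, without the deepest 5% of barcodes and those with over 1 beta chain, and was 0.10 after thinning. In Tc1 the ratio was 0.72 without barcodes holding a C1q or Lyz2 UMI and 0.19 without the 3 largest clonotypes.

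The classes within CD4 went different ways in Tc1 and the same way in Tc9. Other CD4 cells had 295 CPM in expanded and 667 CPM in single clonotypes of Tc1 (-1.18), and 440 and 354 CPM in Tc9 (0.31). Foxp3 cells had 3340 CPM in expanded and 1945 CPM in single clonotypes of Tc1 (0.78, from 19 and 75 barcodes), and 1120 and 251 CPM in Tc9 (2.16, from 31 and 202 barcodes). In these sums, expanded Foxp3 cells thus carried more G2M RNA than single ones in both libraries, from few barcodes. The 5% of expanded Foxp3 barcodes with the most G2M UMIs held 46.8% of them in Tc1 and 88.2% in Tc9. For the G2M-high share, expanded minus single was 5.56 percentage points (-13.5 to 32.1) in Tc1 and 7.69 (-0.526 to 23.8) in Tc9. Both intervals included 0.

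Most of the largest CD4 clonotypes had G2M sums below that of the single clonotypes of their library. In Tc1 the 5 largest held 35, 15, 10, 9 and 8 barcodes, with G2M sums of 161, 201, 41.7, 2554 and 130 CPM, and the clonotype of 9 barcodes supplied 11.9% of all G2M UMIs of expanded cells. In Tc9 they held 65, 54, 26, 25 and 22 barcodes, with 654, 540, 120, 146 and 117 CPM, and the first of them supplied 13.5%. A G2M-high barcode was found in 6 of 45 expanded CD4 clonotypes in Tc1 and in 17 of 105 in Tc9.

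In CD8 cells of Tc1, expanded clonotypes held far more of both lists than single ones. The CD8 class included the 445 naive-like barcodes, whose cluster had G2M at 226 CPM. They were not left out here, and their part in the difference was not tested. Their G2M sum was 2962 CPM against 880 CPM (1.75), and 179 of 727 expanded barcodes (24.6%) but 16 of 291 single ones (5.50%) were G2M-high, a difference of 19.1 percentage points (14.6 to 23.2). Of the S genes 19 of 20 were higher and of the G2M genes 22 of 22, where 20.3% of all genes were (medians 0.94 and 1.65, beside 0.18). Ccnb2 was at 138 CPM in expanded and 22.8 CPM in single clonotypes (2.60 [2.18, 3.04]) and Mki67 at 338 and 115 CPM (1.55 [1.36, 1.75]). The exception among S genes was Ung, which removes uracil from DNA, at 11.1 and 14.6 CPM. The 739 expanded barcodes formed 40 clonotypes, 24 of which had a G2M-high barcode. The largest, of 247 barcodes, had a G2M sum of 3049 CPM and supplied 33.1% of the G2M UMIs of expanded cells, while the fifth, of 45 barcodes, had 444 CPM.

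**Figure D5:**
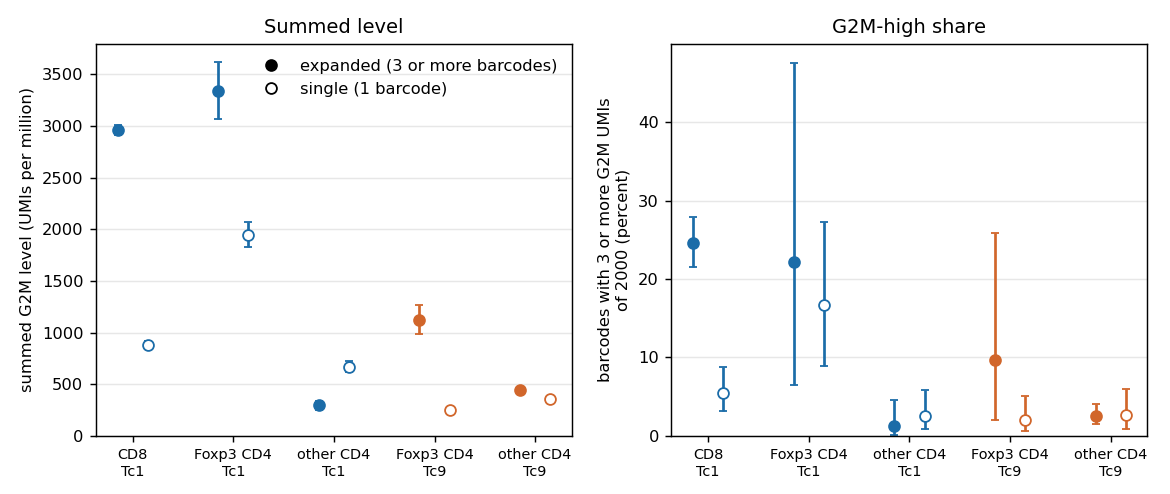
Summed G2M level in CPM (left) and share of G2M-high barcodes in percent (right), for expanded (filled points) and single (open points) clonotypes, by class and library, with bars for the 95% counting interval. Expanded CD8 cells of Tc1 (2962 CPM, 24.6%) lie above single ones (880 CPM, 5.50%). The expanded and single shares of other CD4 cells (1.28% and 2.51% in Tc1, 2.56% and 2.59% in Tc9) lie close to each other. Those of Foxp3 CD4 cells (22.2% and 16.7% in Tc1, 9.68% and 1.99% in Tc9) rest on few barcodes.

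Other genes of the division pathway, in 13 groups listed beside the 42 members, showed where the difference lay. In Foxp3 cells all 15 spindle and cytokinesis genes at 10 CPM or more were lower in Tc9, as were all 10 kinetochore and checkpoint genes, 10 of 13 replication fork genes and 8 of 11 licensing genes. Of 10 CDK inhibitor and quiescence genes, 4 were higher and 1 lower, and of 8 growth signal genes 2 were higher and 1 lower, where 16.1% of all genes were higher. In CD8 cells 17 of 17 spindle and 11 of 11 kinetochore genes were lower. In other CD4 cells 7 of 9 spindle genes, 7 of 10 fork genes and 2 of 5 kinetochore genes were lower, and none of the 7 E2F and RB genes passed 1.5-fold. For the counts of lower genes the background is the same 24.3% in Foxp3, 23.9% in CD8 and 18.5% in other CD4 cells.

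The genes with the largest ratio of each group in other CD4 cells, as log2 of Tc9 over Tc1, were as follows. At the fork and before it, Rfc5 (-1.32) and Rfc4 (-0.91) load the clamp, Clspn (-1.26) transmits the replication checkpoint and Gmnn (-0.69) blocks relicensing. Tk1, which salvages thymidine, was at -2.01 and Shmt2, of mitochondrial folate metabolism, at 0.75. Asf1b, a histone chaperone, was at -2.07 and the histone variant gene H2afz at -0.48. All but Shmt2 were thus lower in Tc9, though H2afz by less than 1.5-fold.

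At mitosis, the kinetochore genes Spc24 and Ndc80 were at -2.12 and -0.73, the spindle genes Aspm and Kif15 at -1.28 and -1.27, and the condensin genes Ncapg and Smc2 at -1.61 and -0.83. Cks1b, a Cdk-binding protein, and Fbxo5, an inhibitor of the anaphase complex, were at -1.44 and -1.21. Cdc25b, a phosphatase that activates Cdk1, was at 0.74 and Lin54, of the MuvB complex, at 0.69. Mitotic entry had the highest median of the groups, 0.69, over only 3 genes.

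Of genes upstream of division, Cdk2 was at -0.98 and Cdk6 at 0.34, Rb1 at 0.48 and Tfdp1, the E2F partner, at -0.31. Foxp1, a quiescence factor, was at -1.14 and Cdkn2c, an inhibitor of Cdk4 and Cdk6, at -1.07. Il2ra, the high-affinity interleukin-2 receptor chain, was at 1.05 and the amino acid transporter Slc7a5 at 26.1 CPM in Tc1 against 52.3 CPM in Tc9. The D cyclins Ccnd2 and Ccnd3 were at -0.12 and -0.23, and Ccnd1, at 3.26 CPM in Tc1 against 0.367 CPM in Tc9, stayed under 10 CPM.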

How the data were processed

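Per the labels' protocols, tumours were digested, enriched on Percoll and sorted for CD4 T cells, and 10x 5′ libraries were made. The authors deposited UMI counts per gene and barcode and tables of assembled receptor chains; the submitters' processing notes name Cell Ranger 7.0.0 and mm10 (GRCm38). Counts include barcodes that passed the authors' cell calling, whose settings are not given in the sources used here.

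Barcodes with 500 genes or more and no more than 10% mitochondrial UMIs were kept and clustered (scanpy 1.11.5, Leiden, resolution 1.0, seed 1) without cell cycle, histone and receptor genes. A cluster was of T lineage when at least 60% of barcodes held a Cd3 UMI and macrophage markers were at most 1000 CPM. Clusters were named from marker lists (T lineage, Treg, naive T, gamma delta T, NK, macrophage, monocyte, dendritic, plasmacytoid, melanoma, neutrophil, fibroblast, endothelial, B, mast or basophil, red cell or platelet); the names are rebuilt, not the authors'. After the data were seen, ties between lists were left unnamed and the NK name was withheld where Cd8 genes led. No doublet caller was run; an alternative leaves out the deepest 5% of barcodes and those with over 1 beta chain.

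UMIs were summed per class and library. Log2 ratios carry an exact conditional 95% interval, shares an exact Clopper-Pearson one and differences of shares a Newcombe one, from Python 3.11.15 and scipy 1.17.1. Shares were taken after thinning to 2000 UMIs. A clonotype is 1 productive alpha and 1 productive beta chain with identical V, J and nucleotide junction. Genes at 10 CPM in a library entered counts, and a gene at 0 was set to a floor of 3 UMIs. The members and all lists were chosen with earlier results of these data known. Named were, per list, the 4 highest and 4 lowest ratios in other CD4 cells with Mki67, Top2a, Pcna and Mcm5, in each pathway group the 2 largest, and the 5 largest clonotypes; those named for Foxp3, CD8 and clonotype comparisons, and D cyclins, were chosen after their values were seen. Alternatives varied filters, clusters, thinning, scaling (edgeR 4.0.16 TMM factors in R 4.3.3 and median-ratio factors), clonotype definition and the removal of doublets or macrophage-marked barcodes; those without the naive-like cluster or cluster 4 were added after seeing the data. The ratio code was checked on simulated counts.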

Additional observations from a re-analysis of the deposited data

Results flagged for a closer look

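The G2M sum of expanded over single CD4 clonotypes pointed in opposite directions in the libraries, with a log2 ratio of -0.25 in Tc1 and 0.65 in Tc9. The same held in other CD4 cells, at -1.18 in Tc1 and 0.31 in Tc9. The share of CD4 barcodes with at least 1 G2M UMI at equal depth did not follow the Tc9 sum. Expanded minus single, it was -5.38 percentage points (-14.3 to 3.91) in Tc1 and -5.94 (-11.5 to -0.516) in Tc9. With 1 library per group the difference between the libraries was not tested.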

How the results depend on the processing

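No paired analysis was possible because each group has 1 library and the labels carry no replicate numbers. Values below are log2 ratios unless stated, and the cause was not tested for any of them. Without the deepest 5% of barcodes and those with over 1 beta chain, Tc9 over Tc1 was -0.82 (S) and -1.89 (G2M) in Foxp3 cells and -0.29 and -0.92 in other CD4 cells, Foxp3 over other CD4 for G2M was 1.79 in Tc1 and 0.82 in Tc9, and expanded over single CD4 in Tc9 reversed to -0.45. That ratio also reversed with the beta chain alone as the clonotype (-0.10), and was 0.10 after thinning. After thinning, S and G2M in Foxp3 cells were -0.66 and -1.56, S in other CD4 cells -0.44, Foxp3 over other CD4 1.30 and 0.47 and expanded over single in Tc1 -0.54. With barcodes counted equally, S and G2M in Foxp3 cells were -0.65 and -1.61, S in other CD4 cells -0.40, and Foxp3 over other CD4 1.27 and 0.43. TMM scaling gave -1.06 and -1.90 in Foxp3 cells, -0.33 and -0.48 in other CD4 cells, and 1.31 and -0.08 for Foxp3 over other CD4; median-ratio scaling gave -1.15, -2.00, -0.46, -0.61 and, in Tc9, -0.03. Without barcodes with C1q or Lyz2, other CD4 gave -0.50 and -0.37, Foxp3 over other CD4 in Tc1 1.93 and expanded over single in Tc1 0.72; the last was 0.19 without the 3 largest clonotypes. Without the gene with the most UMIs of each list, G2M in Foxp3 cells was -2.21 and S in other CD4 cells -0.69. Classes taken from clusters gave -0.82 and -1.44 in other CD4 cells and 1.17 and 0.53 for Foxp3 over other CD4, and subtracting free RNA gave -0.67 for G2M in other CD4 cells. Added after seeing the data, other CD4 without the naive-like cluster gave -0.77 and -1.04, without cluster 4 -0.47 for S, and without both -0.85 and -1.49; Foxp3 over other CD4 in Tc1 was then 0.72. The share with a G2M UMI, Tc9 minus Tc1, was -15.6 percentage points in Foxp3 cells (-7.18 for 3 or more UMIs, -10.1 without thinning). Without barcodes with C1q or Lyz2 that Foxp3 difference was -10.3 (-23.0 to 1.45), an interval that included 0. In other CD4 cells the difference was -9.06 (-13.1 from clusters, -5.52 at 1000 UMIs, -0.0355 without thinning, -1.01 for 3 or more UMIs). All 12 alternatives kept both Foxp3 sums lower in Tc9, and all 16 both other CD4 sums. Depth limits the Tc9 values of Plk1, Cdc20 and Ung, which rest on few UMIs.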

Other observations

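Barcodes outside the named classes also carried the lists. T-lineage barcodes with no Cd4, Foxp3 or Cd8 UMI, or with a conflicting pair, held G2M at 768 CPM in Tc1 against 182 CPM in Tc9 (-2.07). In the Tc1 library a cluster with endothelial markers held G2M at 1351 CPM. Unnamed clusters that carried macrophage markers ranged from 153 to 610 CPM.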
